A study of Homo sapiens with 20 samples.

Results

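Oxidative phosphorylation genes were described in U2-OS cells, a human osteosarcoma line, before and after ionizing radiation and after loss of the NF-κB inhibitor IκBα. Members were all rows of the deposited count table whose gene symbol marks a respiratory chain or ATP synthase gene (NDUFA, NDUFB, NDUFC, NDUFS and NDUFV genes, SDHA to SDHD, UQCR genes, CYC1, COX4 to COX8 genes, ATP5 genes, and mitochondrially encoded MT genes). The rule took 96 of 20314 genes, and the symbols are the older ones of the table (ATP5B, for example, is now ATP5F1B). Of these, 75 encode subunits (36 of complex I, 4 of complex II, 9 of complex III, 11 of complex IV and 15 of complex V), 8 are assembly factors taken by their names (NDUFAF1 to NDUFAF7 and ATP5SL), 8 are tissue-restricted or duplicate paralogs, and 5 are other genes (the pseudogene ATP5EP2, the readthrough genes ATP5J2-PTCD1 and NDUFC2-KCTD14, and the associated genes ATP5S and COX7A2L). All 96 lie in the nuclear genome. Mitochondrially encoded subunits were not analysed here, since no row matched them, and NDUFA3 stood in the table without a symbol and was therefore no member.

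The respiratory chain passes electrons from NADH (complex I, NADH dehydrogenase) or succinate (complex II, succinate dehydrogenase) through ubiquinone, complex III and cytochrome c to complex IV, which reduces oxygen. Complexes I, III and IV pump protons across the inner mitochondrial membrane, and complex V, the ATP synthase, uses the gradient to make ATP. Apart from complex II, each complex joins nuclear and mitochondrially encoded subunits, and dedicated assembly factors that are absent from the finished complex put them together. The nuclear genes are expressed in nearly all cells, and many of their promoters are known targets of NRF1, of ETS factors such as GABP, and of YY1.

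Polyadenylated RNA of 20 libraries was counted, 5 in each of 4 groups. Untreated cells received neither irradiation nor, as far as their labels say, any vector. Irradiated cells were taken 1.5 h (90 minutes) or 7 days after a single dose of 20 Gy, the second being the senescent state that the study examined. NFKBIA knockdown cells carried an shRNA against NFKBIA, the gene of IκBα, and were not irradiated. The study made its knockdown lines with lentiviral shRNA vectors and puromycin selection of clones, and induced the shRNA with doxycycline, which the labels of untreated cells do not name. Effects of vector, selection and doxycycline cannot be told apart from those of the knockdown here. NFKBIA itself stood at 23.5 to 42.0 CPM (the usual unit of read counts relative to library size, here TMM-scaled) in untreated cells, at 76.3 to 88.3 CPM at 1.5 h, at 28.4 to 32.4 CPM at 7 days and at 11.2 to 13.0 CPM in the knockdown. Of 6 bone markers, RUNX2 (67.6 to 206 CPM), SPARC (1197 to 2232 CPM), COL1A1 (576 to 2375 CPM) and ALPL (5.80 to 55.1 CPM) were expressed, whereas COL1A2 (0.120 to 0.595 CPM) and BGLAP (0.658 to 1.71 CPM) were low. The keratin genes KRT8 (189 to 444 CPM) and KRT18 (361 to 657 CPM) were expressed too, and the epithelial markers EPCAM (1.68 to 4.45 CPM) and CDH1 (0.293 to 2.71 CPM) were low. The leukocyte markers PTPRC, CD3E and CD14 and the endothelial marker CDH5 did not exceed 1.64, 0.571, 0.465 and 0.231 CPM, and PECAM1 matched no row. The labels do not say what separates the replicates of a group, which the study calls biological.

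The untreated libraries stood apart and touch every comparison made with them. Total counts ranged from 22535659 in untreated replicate 5 to 40390961 in untreated replicate 3. Within untreated cells the median SD of the tested members was 0.28 on the log2 scale, against 0.073 at 1.5 h, 0.050 at 7 days and 0.076 in the knockdown, and over all genes tested the same medians were 0.22, 0.083, 0.064 and 0.074. Untreated replicate 4 had the highest level of the 5 untreated libraries for 66 of 89 members, with a member median of 0.43 (log2) above the mean of the 20 libraries. The cytosolic ribosomal protein genes (0.40) and the mitochondrial ribosomal protein genes (0.33) were raised in the same library. Untreated replicate 5 had the lowest level for 46 members and the highest for 19, and it alone of the untreated libraries ran in the sequencing lane numbered 3, the other 4 sharing lane 2 with no other group. Values against untreated cells use all 5 untreated libraries. Counts, and members described one by one whose call changed or whose value moved by over 1.5 times, are therefore given again without replicates 4 and 5, a choice made after seeing the data. The part of lane, RNA quality or culture in this spread was not tested.

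**Figure D1:**
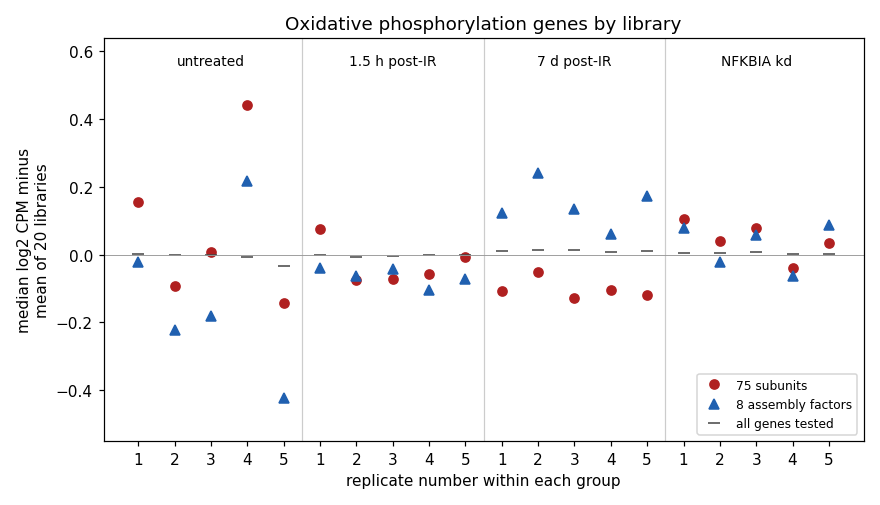
Median level of the 75 subunit genes (circles), the 8 assembly factors (triangles) and all genes tested (dashes) in each of the 20 libraries, as log2 CPM minus the mean of the 20 libraries, by group and replicate number. Untreated libraries spread from -0.14 to 0.44 for the subunits, whereas the 5 libraries at 7 days lie between -0.13 and -0.050 for subunits and between 0.061 and 0.24 for assembly factors.

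Promoters are shown for 5 members on which the results turn: ATP5G2 and COX8A, subunits that were lower at 7 days, UQCRFS1, the subunit that differed most between 7 days and knockdown, and the assembly factors NDUFAF1 and NDUFAF4, which were higher at 7 days. Sequences run 5′ to 3′ on the gene's strand from 250 bases before to 50 bases after the RefSeq start (GRCh38.p14), and capitals mark matches, on either strand, to GCATGCGC (NRF1), CCGGAAG (ETS) or AAGATGGCG (YY1). ATP5G2 is at chr12:53676034-53676333 on the minus strand, COX8A at chr11:63974370-63974669 on the plus strand, UQCRFS1 at chr19:29213102-29213401 on the minus strand, NDUFAF1 at chr15:41402447-41402746 on the minus strand and NDUFAF4 at chr6:96897842-96898141 on the minus strand.
ATP5G2: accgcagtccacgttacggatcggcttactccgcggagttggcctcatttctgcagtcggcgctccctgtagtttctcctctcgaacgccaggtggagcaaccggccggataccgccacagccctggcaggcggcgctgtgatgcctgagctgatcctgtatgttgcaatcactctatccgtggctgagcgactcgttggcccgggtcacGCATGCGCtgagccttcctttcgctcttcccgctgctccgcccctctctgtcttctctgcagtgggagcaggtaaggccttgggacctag
COX8A: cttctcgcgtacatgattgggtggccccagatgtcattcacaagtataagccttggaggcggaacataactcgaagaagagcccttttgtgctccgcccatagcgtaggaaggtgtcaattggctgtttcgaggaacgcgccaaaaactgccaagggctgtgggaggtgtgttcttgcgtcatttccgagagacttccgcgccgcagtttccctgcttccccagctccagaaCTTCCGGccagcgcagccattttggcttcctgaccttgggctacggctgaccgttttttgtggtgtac
UQCRFS1: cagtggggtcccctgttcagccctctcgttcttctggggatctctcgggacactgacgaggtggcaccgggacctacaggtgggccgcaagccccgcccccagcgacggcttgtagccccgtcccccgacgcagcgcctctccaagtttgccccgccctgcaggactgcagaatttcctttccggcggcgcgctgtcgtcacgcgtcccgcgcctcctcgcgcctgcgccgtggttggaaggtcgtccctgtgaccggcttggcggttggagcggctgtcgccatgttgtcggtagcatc
NDUFAF1: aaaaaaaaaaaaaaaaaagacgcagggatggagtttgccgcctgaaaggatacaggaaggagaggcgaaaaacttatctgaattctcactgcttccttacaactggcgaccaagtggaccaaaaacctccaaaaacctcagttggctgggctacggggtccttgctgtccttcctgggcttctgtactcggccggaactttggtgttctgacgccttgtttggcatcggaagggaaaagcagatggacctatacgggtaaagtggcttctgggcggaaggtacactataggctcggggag
NDUFAF4: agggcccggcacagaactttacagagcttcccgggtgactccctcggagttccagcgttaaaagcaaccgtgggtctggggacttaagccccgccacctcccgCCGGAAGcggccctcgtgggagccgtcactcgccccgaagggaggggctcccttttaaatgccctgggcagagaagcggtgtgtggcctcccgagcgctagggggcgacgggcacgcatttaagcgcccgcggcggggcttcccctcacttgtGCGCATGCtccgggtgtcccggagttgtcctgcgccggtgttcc
ATP5G2 holds an NRF1 match 40 bases before the start, COX8A an ETS match 18 bases before it, and NDUFAF4 both an ETS match and an NRF1 match, the latter just after the start.

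By share, and with no test made, these motifs were commoner among member promoters than among all promoters. RefSeq gave a promoter for 76 of the 96 members. Each member counted with 1 promoter, whereas all promoters are every entry of the set, not limited to genes like the members. NRF1 letters were found in 15 of 76 (19.7%) member promoters against 1072 of 35116 (3.05%) of all promoters of this length. ETS letters were found in 20 of 76 (26.3%) against 3603 of 35116 (10.3%), and YY1 letters in 8 of 76 (10.5%) against 614 of 35116 (1.75%). The NRF1 letters and their reverse complement share 6 bases, so that a single palindromic stretch can match on both strands. Of the promoters of members that fell at 7 days against untreated cells, 16 of 32 (50%) held a match to any of the 3, and of those that rose, 1 of 5 (20%). The same share was 32 of 76 (42.1%) over the members and 4915 of 35116 (14%) over all promoters.

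Per kilobase of gene model, complexes III, IV and V stood above complexes I and II in untreated cells. The median over subunits was 28.3 CPM per kb for complex I, 28.5 for complex II, 61.4 for complex III, 70.3 for complex IV and 56.7 for complex V. The highest single subunits were COX8A of complex IV at 333 CPM per kb, NDUFS5 of complex I at 221 and ATP5B, the catalytic β subunit of ATP synthase, at 196. The lowest was NDUFA5 of complex I at 2.48, and the lowest of complex II was SDHA, its flavoprotein, at 10.2. Assembly factors ranged from 1.97 CPM per kb for NDUFAF5 to 32.7 for NDUFAF2. Lengths are those of the table's gene models, and these ranks depend on them. By counts in the untreated libraries, NDUFA5 (615 to 837) stood above NDUFB1 of complex I (461 to 591).

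**Figure D2:**
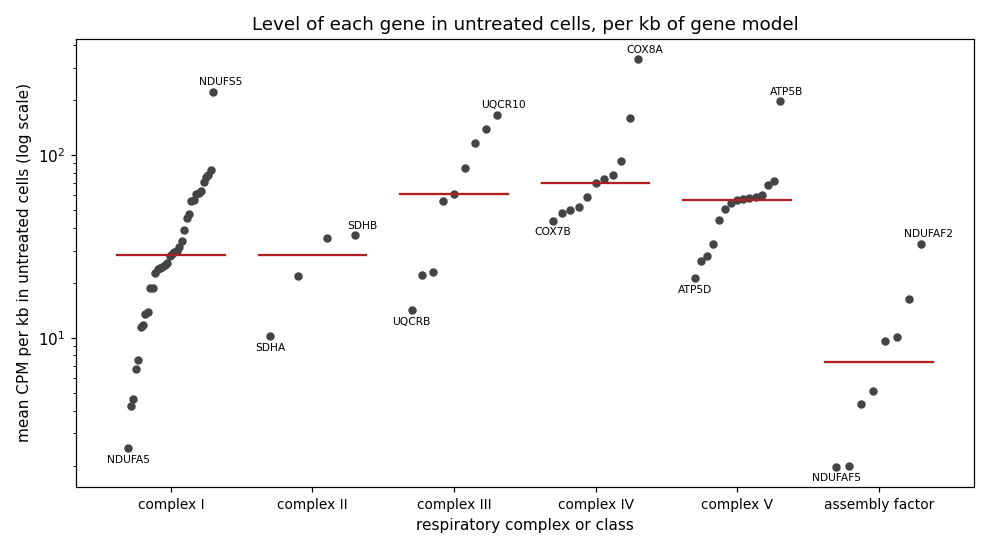
Mean level of each tested subunit or assembly factor in the 5 untreated libraries, in CPM per kb of gene model on a log scale, by complex. Red lines mark the median of each class, and the highest and lowest gene of each class is named, with COX8A at 333 and NDUFA5 at 2.48 CPM per kb among subunits.

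Of the 8 paralogs, 7 were too low to test, and each of them stood beside an expressed counterpart.
COX4I2 and COX7A1, forms of complex IV known from lung and heart or muscle, had 0 counts in all 20 libraries. COX6A2, the muscle form, had at most 1 count, COX7B2 at most 1, COX8C at most 3, NDUFA4L2, a hypoxia-inducible relative of NDUFA4, at most 7, and COX6B2, the testis form, at most 17. A count of 0 in the deepest library allows up to 3 counts. Their counterparts were abundant in untreated cells, with COX4I1 at 337 ± 71.9 CPM (SD, n = 5), COX7A2 at 114 ± 27.4 CPM, COX6A1 at 99.7 ± 17.3 CPM, COX6B1 at 149 ± 22.8 CPM and NDUFA4 at 178 ± 21.0 CPM. The eighth paralog, ATP5L2, passed the filter at 8 to 24 counts and did not pass a test in any comparison.

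At 7 days after irradiation most subunits that passed the test were lower than in untreated cells, by small amounts, while of the 8 assembly factors 4 were higher and 1 was lower. Among the 89 tested members, 42 fell and 6 rose at an adjusted p under 0.05, against 31.2% lower and 32.9% higher of all 14992 genes tested. Past a log2 fold change of 0.5 as well, 7 were lower and 1 higher, against 14.4% and 16.7% of all genes, a smaller share of the members than of all genes. The median log2 fold change of the members was -0.20, against 0.012 for all genes. Without untreated replicates 4 and 5, 44 members fell and 12 rose (all genes 35.9% and 35.3%), with a median of -0.11. Of the 42 that fell with all libraries, 33 still did, and the other 9 kept their sign. No member then fell past 0.5, where 7 had with all libraries, and 1 rose past it. CPM is a share of the library, so that a lower value cannot tell less transcript per cell from more of other transcripts.

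**Figure D3:**
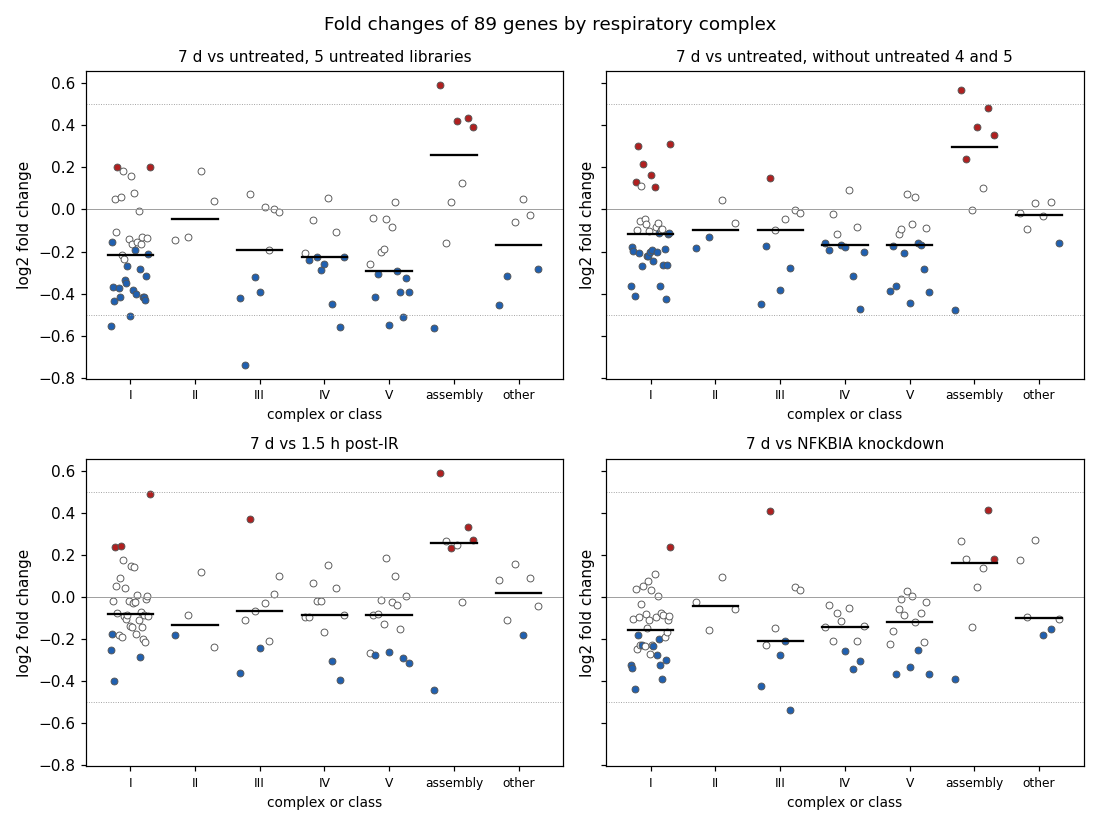
Log2 fold changes of the 89 tested members by complex or class for 7 days against untreated cells (with all untreated libraries, and without replicates 4 and 5), against 1.5 h and against NFKBIA knockdown, with a point per gene, filled red (higher) or blue (lower) at an adjusted p under 0.05 and open otherwise. Black bars are medians and dotted lines mark 0.5 in either direction. At 7 days against all untreated libraries the medians of complexes I, III, IV and V lie between -0.29 and -0.19 and that of the assembly factors at 0.26. Without replicates 4 and 5 the former lie between -0.17 and -0.095 and the latter at 0.30. The median of all members together turned from -0.20 to 0.043 with lane as a factor.

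By complex, the members that fell were spread over the proton-pumping complexes and ATP synthase. In complex I 19 of 36 subunits (52.8%) fell and 2 rose. In complex III 4 of 9 (44.4%) fell, in complex IV 7 of 11 (63.6%) and in complex V 8 of 15 (53.3%). Of all genes 31.2% fell and 32.9% rose, and the shares of complexes II and III, with 4 and 9 subunits, rest on few genes. No subunit of complex II passed the test, either in edgeR, in DESeq2 or at an unadjusted p under 0.05. Medians were -0.22 for complex I, -0.046 for complex II, -0.19 for complex III, -0.23 for complex IV and -0.29 for complex V. Without untreated replicates 4 and 5 they were -0.12, -0.098, -0.095, -0.17 and -0.17 in the same order. Complex II then no longer stood apart from complexes I and III. Without untreated replicates 4 and 5, 20, 4, 7 and 9 subunits of complexes I, III, IV and V fell and 6, 1, 0 and 0 rose (all genes 35.9% and 35.3%). Of complex II, 2 then fell, SDHA (-0.18 ± 0.042 (SE), adjusted p = 0.000515) and SDHB (-0.13 ± 0.058 (SE), adjusted p = 0.0453), the iron-sulphur subunit.

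COX8A (ENSG00000176340), a small membrane subunit of complex IV, stood at 171, 147, 153, 211 and 163 CPM in the 5 untreated libraries and at 112, 121, 113, 116 and 111 CPM at 7 days. All 5 libraries at 7 days lay below all untreated ones. COX8A fell by 32.2%, a log2 fold change of -0.56 ± 0.088 (SE), adjusted p = 1.2e-05, or -0.47 ± 0.074 (SE), adjusted p = 6.16e-06 without replicates 4 and 5. Its exons overlap those of AP000721.1 on the same strand.
ATP5G2 (ENSG00000135390), one of the 3 genes for the c subunit that forms the rotor ring of ATP synthase, stood at 269.6, 244, 239.5, 328 and 283 CPM untreated and at 184, 198, 181, 191 and 181 CPM at 7 days. The groups again did not overlap, and the log2 fold change was -0.55 ± 0.069 (SE), adjusted p = 5.85e-07, or -0.44 ± 0.049 (SE), adjusted p = 2.72e-08 without those replicates. For COX8A and ATP5G2 the exact two-sided permutation test of log2 CPM gave 0.00794, the smallest p that 5 against 5 libraries allow.

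NDUFA1 (ENSG00000125356), an accessory subunit of the membrane arm of complex I, stood at 44.9, 36.0, 40.8, 57.1 and 56.4 CPM untreated and at 31.4, 34.5, 30.6, 31.4 and 31.7 CPM at 7 days. Its libraries at 7 days were all below the untreated ones, with a log2 fold change of -0.56 ± 0.10 (SE), adjusted p = 3.51e-05. The value was -0.36 ± 0.063 (SE), adjusted p = 2.31e-05 without replicates 4 and 5, its highest libraries. NDUFA1 shares exonic bases with RNF113A on the opposite strand. NDUFB4, another accessory subunit of complex I, reached -0.51 (adjusted p = 0.00205) and ATP5J2, the f subunit of ATP synthase, -0.51 (adjusted p = 0.000171). In both, untreated replicate 5 was the highest library, at 163 and 174 CPM. Without replicates 4 and 5 the values were -0.20 ± 0.050 (SE), adjusted p = 0.00109 for NDUFB4 and -0.29 ± 0.053 (SE), adjusted p = 5.63e-05 for ATP5J2.

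The largest fall by fold change, that of UQCR10 (ENSG00000184076), owed most of its size to a single library. UQCR10, a small subunit of complex III, stood at 122, 96.4, 104, 149 and 335 CPM in untreated cells, and at 96.6 to 111 CPM at 1.5 h, 92.9 to 102 CPM at 7 days and 102 to 119 CPM in the knockdown. Only untreated replicate 5 stood far above the rest. The log2 fold change at 7 days was -0.74 ± 0.22 (SE), adjusted p = 0.00693, and -0.17 ± 0.063 (SE), adjusted p = 0.0185 without replicates 4 and 5.

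Core subunits of the complexes moved unevenly at 7 days. CYC1 (ENSG00000179091), cytochrome c1 of complex III, stood at 286, 264, 273, 319.8 and 219 CPM untreated and at 199, 212, 202, 204 and 201 CPM at 7 days, without overlap. It fell by 25.2% (-0.42 ± 0.076 (SE), adjusted p = 6.14e-05), and by 22.0% against 1.5 h and 25.3% against the knockdown. UQCRC1, a core protein of complex III, changed by -0.39 ± 0.089 (SE), adjusted p = 0.000658. In complex I, NDUFS7 (-0.43 ± 0.10 (SE), adjusted p = 0.000528), NDUFS8 (-0.32 ± 0.077 (SE), adjusted p = 0.00126) and NDUFV2 (-0.21 ± 0.067 (SE), adjusted p = 0.00834), which carry iron-sulphur clusters, were lower too. NDUFV2 was at -0.11 ± 0.046 (SE), adjusted p = 0.0359 without replicates 4 and 5. For UQCRC1 untreated replicate 5 lay within the range at 7 days. Among core subunits of complex I that did not pass, NDUFS1 was at -0.0077, NDUFS3 at -0.16 and NDUFV1 at -0.13. NDUFS1 (-0.11 ± 0.029 (SE), adjusted p = 0.00168) and NDUFV1 (-0.12 ± 0.040 (SE), adjusted p = 0.0109) did pass without those replicates, and NDUFS3 was at -0.10 ± 0.050 (SE), adjusted p = 0.0778.
In complex IV, COX5A changed by -0.24 ± 0.078 (SE), adjusted p = 0.0104, whereas COX4I1 (-0.21, adjusted p = 0.0572) and COX5B (-0.048, adjusted p = 0.750) did not pass. COX4I1 passed without those replicates (-0.16 ± 0.051 (SE), adjusted p = 0.00840), and COX5B was at -0.022 ± 0.065 (SE), adjusted p = 0.774. In complex V, neither ATP5A1 (-0.26, adjusted p = 0.147) nor ATP5B (-0.041, adjusted p = 0.819), the α and β subunits of the catalytic head, passed with all libraries. Both fell without replicates 4 and 5, with -0.39 ± 0.049 (SE), adjusted p = 2.18e-07 for ATP5A1 and -0.17 ± 0.051 (SE), adjusted p = 0.00466 for ATP5B.

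The members that rose at 7 days were NDUFAF1, NDUFAF6, NDUFAF4, NDUFAF7, NDUFV3 and NDUFA5. The first 4 are assembly factors of complex I. NDUFV3 was at 0.20 ± 0.071 (SE), adjusted p = 0.0168, at 0.31 ± 0.049 (SE), adjusted p = 6.14e-06 without replicates 4 and 5, and at -0.091 with lane as a factor. Its call was lost without untreated replicate 2 or 3, or replicate 2 or 3 at 7 days (adjusted p = 0.0516 to 0.0750 in edgeR). Leaving out single libraries gave 4 (without untreated replicate 2) to 12 (without untreated replicate 4) members that rose. NDUFAF1 (ENSG00000137806), a chaperone of an early membrane-arm intermediate, stood at 9.71, 9.10, 9.18, 12.8 and 5.18 CPM in untreated cells and at 12.9, 14.5, 14.3, 14.2 and 14.0 CPM at 7 days. All libraries at 7 days were above all untreated ones, although untreated replicate 4 came close. NDUFAF1 rose by 50.8%, with 0.59 ± 0.13 (SE), adjusted p = 0.000506, and 0.57 ± 0.067 (SE), adjusted p = 9.32e-08 without replicates 4 and 5. Leaving out untreated replicate 5 alone gave 0.44, below 0.5.
NDUFAF6 (ENSG00000156170), which acts in assembly of the early membrane-bound core, stood at 12.0, 12.0, 12.4, 13.9 and 13.3 CPM untreated and at 16.9, 17.7, 18.1, 16.2 and 17.0 CPM at 7 days, again without overlap (0.44 ± 0.053 (SE), adjusted p = 3.85e-07). NDUFAF7 (ENSG00000003509), a methyltransferase that acts in complex I assembly, stood at 39.5, 36.3, 36.5, 39.2 and 32.6 CPM untreated and at 47.2, 50.6, 49.5, 47.2 and 47.3 CPM at 7 days. Its groups did not overlap, and the log2 fold change was 0.39 ± 0.050 (SE), adjusted p = 8e-07. NDUFAF4 (ENSG00000123545), a partner of NDUFAF3, stood at 12.9, 10.0, 10.8, 14.3 and 7.28 CPM untreated and at 15.2, 15.7, 14.5, 13.5 and 15.5 CPM at 7 days. It changed by 0.42 ± 0.11 (SE), adjusted p = 0.00236, with untreated replicate 4 inside the range at 7 days.

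Not every assembly factor rose. ATP5SL (ENSG00000105341), now named DMAC2 and known for assembly of the distal membrane arm of complex I, stood at 72.9, 59.4, 67.4, 77.7 and 80.4 CPM untreated and at 49.4, 47.5, 49.0, 48.3 and 47.9 CPM at 7 days. It fell by 32.3% without overlap (-0.56 ± 0.066 (SE), adjusted p = 2.33e-07, and -0.48 ± 0.056 (SE), adjusted p = 8.76e-08 without replicates 4 and 5). NDUFAF2, a relative of NDUFA12, was measured at 26.8, 23.3, 23.2, 31.0 and 60.1 CPM untreated, with replicate 5 far above the rest, and at 28.5 to 29.9 CPM at 7 days (-0.16 ± 0.18 (SE), adjusted p = 0.451). Without replicates 4 and 5 NDUFAF2 rose (0.24 ± 0.063 (SE), adjusted p = 0.00172). NDUFAF3 (0.038, adjusted p = 0.747) and NDUFAF5 (0.12, adjusted p = 0.313) did not pass, and the sign of NDUFAF3 turned without those replicates (-0.0022 ± 0.064 (SE), adjusted p = 0.978).

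**Figure D4:**
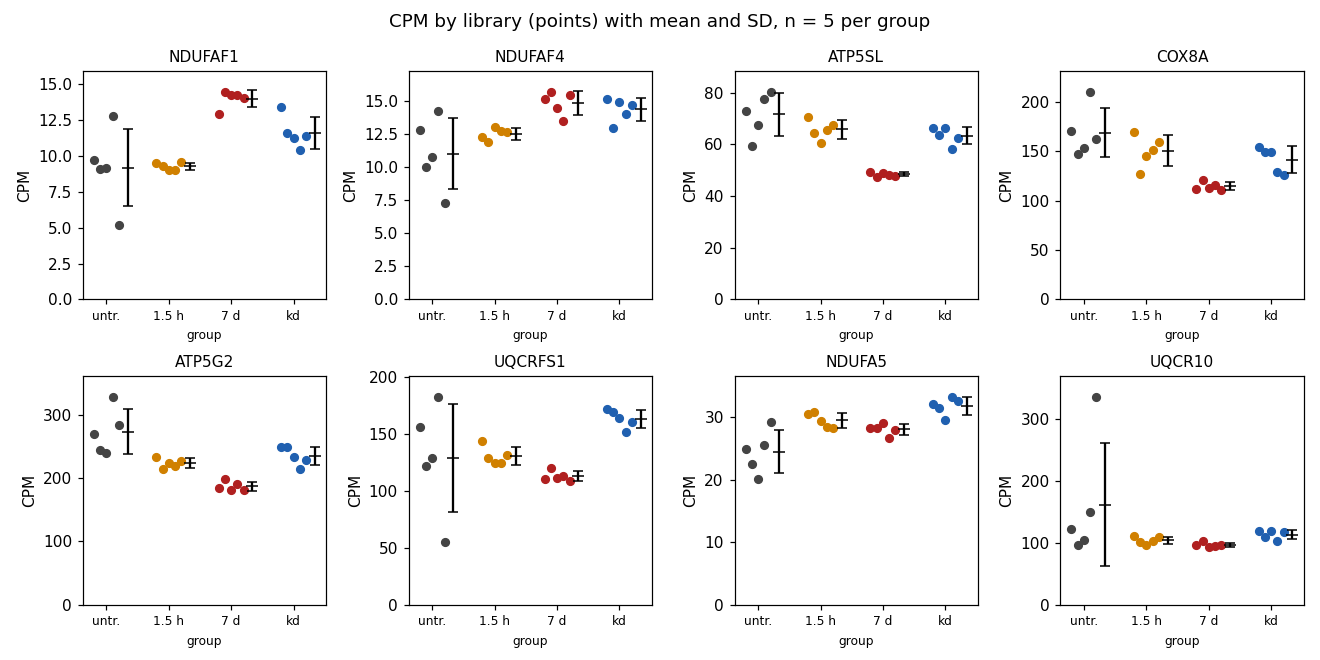
CPM of 8 members in each library (points) with mean and SD beside them (n = 5 per group) in untreated cells, at 1.5 h, at 7 days and with NFKBIA knockdown. NDUFAF1 lies highest at 7 days, at 12.9 to 14.5 CPM, ATP5SL, COX8A and ATP5G2 lie lowest at 7 days, and the untreated UQCR10 mean is set by 1 library at 335 CPM.

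The comparison of 7 days with 1.5 h asked what changed between the acute and the late phase. No untreated library is part of the contrast, but the model's spread was estimated over all 20 libraries, the untreated ones included. In it 15 of 89 members (16.9%) were lower and 8 (8.99%) higher at 7 days, against 28.9% and 32.0% of all genes. The median was -0.071 against 0.012. Past 0.5, none was lower and NDUFAF1 alone was higher (0.59 ± 0.13 (SE), adjusted p = 0.000505), where all genes gave 12.6% and 16.8%. DESeq2 made the same counts past 0.5. A fit to these 2 groups alone passed 41 members lower and 18 higher, with a median of -0.079 against 0.0044 for all genes. The share of all genes passing in that fit is not given, so these counts cannot be set beside 28.9% and 32.0%. The median was -0.11 without replicate 4 at 1.5 h and -0.038 with upper-quartile factors, which moved the median of all genes to 0.044. Members lower at 7 days included ATP5SL, NDUFA12, COX8A, CYC1, ATP5O, COX7B, ATP5J2, ATP5C1, ATP5G2, NDUFA1, UQCRC1, ATP5S, SDHA and NDUFA10. Members higher were NDUFAF1, NDUFV3, UQCR11, NDUFAF6, NDUFAF7, NDUFA8, NDUFA13 and NDUFAF3.
ATP5SL fell by 26.4% from 70.8, 64.5, 60.4, 65.5 and 67.6 CPM at 1.5 h, without overlap (-0.44 ± 0.066 (SE), adjusted p = 6.42e-06). NDUFA12, an accessory subunit of the peripheral arm of complex I, stood at 40.5, 39.3, 36.6, 40.4 and 42.2 CPM at 1.5 h and at 31.5, 30.1, 31.1, 28.9 and 29.3 CPM at 7 days (-0.40 ± 0.084 (SE), adjusted p = 0.000304). COX8A changed by -0.40, CYC1 by -0.36, ATP5O by -0.31 and COX7B by -0.30 on the log2 scale. NDUFV3, an accessory subunit at the NADH-oxidizing end of complex I, moved the other way, from 22.5, 20.9, 22.7, 22.2 and 21.5 CPM at 1.5 h to a mean of 30.9 ± 1.66 CPM at 7 days (0.49 ± 0.071 (SE), adjusted p = 4.01e-06). UQCR11, the smallest subunit of complex III, rose from 43.1, 36.8, 36.7, 36.8 and 39.3 CPM to 51.1, 49.4, 48.9, 50.7 and 49.5 CPM (0.37 ± 0.090 (SE), adjusted p = 0.00124). For none of these members did the groups overlap. Within lane 4, which held 2 libraries of each group, the median difference between their means was -0.015 over the 89 members, of which 50 were lower and 39 higher at 7 days. A fit to these 4 libraries passed 30 members lower and 17 higher, with a median of -0.030 against 0.0018 for all genes. The share of all genes passing in the fit to lane 4 is not given.

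The comparison of 7 days with NFKBIA knockdown sets the senescent state beside loss of IκBα without irradiation, with the spread again estimated over all 20 libraries. There 25 members (28.1%) were lower at 7 days and 4 (4.49%) higher, against 27.7% and 29.7% of all genes. The share lower was thus close to that of all genes, and the share higher was below it. The median was -0.12 against 0.00015 for all genes. Past 0.5, UQCRFS1 alone was lower and none was higher, against 9.89% and 15.8% of all genes. By complex, 11 of 36 complex I subunits (30.6%) and 0 of 4 of complex II were lower. The counts were 4 of 9 (44.4%) for complex III, 3 of 11 (27.3%) for complex IV and 4 of 15 (26.7%) for complex V. The members lower at 7 days included UQCRFS1, NDUFA12, CYC1, ATP5SL, NDUFS4, ATP5O, ATP5C1, COX7B, NDUFA10, ATP5G2, NDUFA1, COX8A, NDUFS7, NDUFC1, UQCRC1, COX6C, ATP5I, NDUFB7, NDUFA9, UQCRC2, NDUFS1, NDUFA5, ATP5S and COX7A2L. Those higher were NDUFAF6, UQCR11, NDUFV3 and NDUFAF7. A fit to these 2 groups alone, without the spread of the untreated libraries, passed 57 members lower and 9 higher. Its median was -0.12 for the members and -0.0018 for all genes. The share of all genes passing in that fit is not given, so these counts cannot be set beside 27.7% and 29.7%. Within lane 5, with 3 libraries at 7 days and 1 of the knockdown, the median difference over the 89 members was -0.20, and 80 of them were lower at 7 days. That knockdown library, replicate 1, had the highest member median of the knockdown libraries (0.10 against the mean of the 20 libraries, others -0.044 to 0.076).

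UQCRFS1 (ENSG00000169021), the Rieske iron-sulphur protein of complex III, stood at 111, 120.4, 112, 113 and 109 CPM at 7 days and at 172, 169, 164, 152 and 161 CPM in the knockdown. The groups were far apart, with a fall by 30.9% from knockdown to 7 days (-0.53 ± 0.18 (SE), adjusted p = 0.0141). In untreated cells it spread over 156, 122, 129, 183 and 55.0 CPM, with replicate 5 well below the next library, and neither the knockdown (0.34 ± 0.18 (SE), adjusted p = 0.131) nor 7 days (-0.19 ± 0.18 (SE), adjusted p = 0.354) passed against untreated cells. Without replicates 4 and 5 both did, with 0.26 ± 0.062 (SE), adjusted p = 0.00160 for the knockdown and -0.28 ± 0.062 (SE), adjusted p = 0.000354 for 7 days.
NDUFA10, an accessory subunit of complex I, had the smallest adjusted p of the members that fell, from 123 to 132 CPM in the knockdown to 98.8 to 105 CPM at 7 days (-0.34 ± 0.042 (SE), adjusted p = 7.28e-07). NDUFS4, a late-assembled accessory subunit, stood at 69.5, 64.6, 66.8, 66.6 and 67.9 CPM in the knockdown and 53.0, 52.9, 48.8, 50.6 and 51.0 CPM at 7 days (-0.39 ± 0.093 (SE), adjusted p = 0.00124). NDUFAF6 and UQCR11 were higher at 7 days without overlap, by 0.41 (adjusted p = 9.55e-07) and 0.41 (adjusted p = 0.000597). For the assembly factors NDUFAF1 (0.27 ± 0.13 (SE), adjusted p = 0.0831) and NDUFAF4 (0.048 ± 0.11 (SE), adjusted p = 0.729) a difference from the knockdown did not pass the test.

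At 1.5 h after irradiation the members differed little from untreated cells, and what passed depended on the untreated libraries. Of 89 members, 17 were lower and 2 higher, against 10.2% and 11.1% of all genes, and past 0.5 there were 3 lower and 0 higher, against 1.57% and 2.08%. The median was -0.14, against -0.026 for all genes. Without untreated replicates 4 and 5, 9 were lower and 4 higher (all genes 15.0% and 14.5%), 6 of the 17 lower members still passed, none was past 0.5, and the median was -0.062. Leaving out untreated replicate 4 alone gave a median of -0.060. In a fit to these 2 groups alone 0 members passed in either direction at an adjusted p under 0.05, where 13 were lower and 2 higher at an unadjusted p under 0.05.
The 3 members past 0.5 were UQCR10 (-0.63, adjusted p = 0.0489), the pseudogene ATP5EP2 (-0.54, adjusted p = 0.0493) and NDUFA7 (-0.51, adjusted p = 0.0312), a peripheral-arm subunit of complex I. In each of them untreated replicate 5 was the highest library, at 335, 37.9 and 37.4 CPM. Other untreated libraries reached 149, 21.3 and 20.5 CPM. Without replicates 4 and 5, UQCR10 was at -0.054 ± 0.063 (SE), adjusted p = 0.568, ATP5EP2 at -0.088 ± 0.088 (SE), adjusted p = 0.495 and NDUFA7 at -0.14 ± 0.055 (SE), adjusted p = 0.0670. The calls of UQCR10 and ATP5EP2 were also lost when any 1 library at 1.5 h was left out, and that of NDUFA7 without replicate 2, 3, 4 or 5 at 1.5 h.

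NDUFA5 (ENSG00000128609), an accessory subunit of the peripheral arm of complex I, had the smallest adjusted p of the members that rose at 1.5 h. It stood at 24.9, 22.5, 20.1, 25.5 and 29.3 CPM in untreated cells, 30.5, 30.8, 29.4, 28.3 and 28.2 CPM at 1.5 h, 28.2, 28.2, 29.1, 26.6 and 27.9 CPM at 7 days and 32.1, 31.4, 29.5, 33.2 and 32.6 CPM in the knockdown. Untreated replicates 1 to 4 lay below every other library, whereas replicate 5 lay inside the range at 1.5 h, above that at 7 days and below all knockdown libraries. The log2 fold changes were 0.27 ± 0.070 (SE), adjusted p = 0.00833 at 1.5 h, 0.20 ± 0.071 (SE), adjusted p = 0.0171 at 7 days and 0.38 ± 0.071 (SE), adjusted p = 0.000205 in the knockdown, 3 values that share the same untreated libraries. The value at 7 days was 0.30 ± 0.057 (SE), adjusted p = 5.88e-05 without replicates 4 and 5. ATP5S, a factor associated with ATP synthase, was the other member higher at 1.5 h (0.23 ± 0.060 (SE), adjusted p = 0.00910). NDUFV3 stood at 25.2, 23.9, 24.6, 27.7 and 33.3 CPM untreated and was lower at 1.5 h without overlap (-0.29 ± 0.071 (SE), adjusted p = 0.00629), and its highest library was untreated replicate 5. Its value was -0.17 ± 0.050 (SE), adjusted p = 0.0146 without replicates 4 and 5. In lane 3, with 3 libraries at 1.5 h and untreated replicate 5 alone, the median difference over the 89 members was 0.062.

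With NFKBIA knockdown the balance of higher and lower members turned with the untreated libraries and with the scaling used. With all untreated libraries, 14 members (15.7%) were lower and 8 (8.99%) higher, against 21.1% and 19.5% of all genes. Past 0.5 only ATP5EP2 was lower and none was higher, against 7.53% and 5.18%. The median was -0.069, against -0.0080 for all genes. Without replicates 4 and 5, 7 were lower and 18 higher (all genes 26.9% and 22.5%), with a median of -0.0035. Leaving out untreated replicate 4 alone turned the median to 0.013, against -0.11 without untreated replicate 5, and passed 20 members higher. Lower members ranged from 7 without knockdown replicate 4 to 26 without untreated replicate 2. All 8 higher members and 4 of the 14 lower ones passed both with all untreated libraries and without replicates 4 and 5. Scaling by library size alone passed 7 members lower and 10 higher, with a median of -0.012 against 0.049 for all genes. Higher in the knockdown with all libraries were NDUFA5, NDUFAF4, NDUFS4, ATP5S, UQCRC2, NDUFAF7, NDUFS1 and NDUFA10, and lower were ATP5EP2, NDUFB2, UQCR11, NDUFS5, ATP5J, ATP5L, ATP5J2, NDUFA6, NDUFA11, COX8A, ATP5G2, COX5A, NDUFC2-KCTD14 and ATP5SL.
NDUFA10 rose to 127 ± 3.92 CPM (SD, n = 5) from 112 ± 6.59 CPM, without overlap (0.18 ± 0.042 (SE), adjusted p = 0.00181). UQCRC2, a core protein of complex III, changed by 0.22 ± 0.059 (SE), adjusted p = 0.00518, and NDUFS4 by 0.26 ± 0.093 (SE), adjusted p = 0.0304. Leaving out untreated replicate 5 alone gave 0.14 for UQCRC2 and 0.17 for NDUFS4. The NDUFS4 call was lost without untreated replicate 2, 3 or 5 or knockdown replicate 1 (adjusted p = 0.0542 to 0.0871 in edgeR). NDUFAF4 changed by 0.37 ± 0.11 (SE), adjusted p = 0.0108 and NDUFAF7 by 0.21 ± 0.050 (SE), adjusted p = 0.00221. NDUFAF1 did not pass with all libraries (0.33 ± 0.13 (SE), adjusted p = 0.0553) but did without replicates 4 and 5 (0.30 ± 0.068 (SE), adjusted p = 0.000746). UQCR11 was lower, at 39.3, 40.1, 40.3, 34.2 and 33.7 CPM against 48.2, 41.3, 44.0, 62.6 and 41.3 CPM untreated (-0.34 ± 0.091 (SE), adjusted p = 0.00518), and all knockdown libraries lay below all untreated ones. ATP5EP2, a near-copy of ATP5E whose reads may be shared with it, was at -0.63 ± 0.19 (SE), adjusted p = 0.0122 with all libraries and at -0.19 ± 0.090 (SE), adjusted p = 0.0816 without replicates 4 and 5, with ATP5E itself at -0.19 (adjusted p = 0.0971) in the first fit and -0.083 ± 0.064 (SE), adjusted p = 0.298 in the second.

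**Figure D5:**
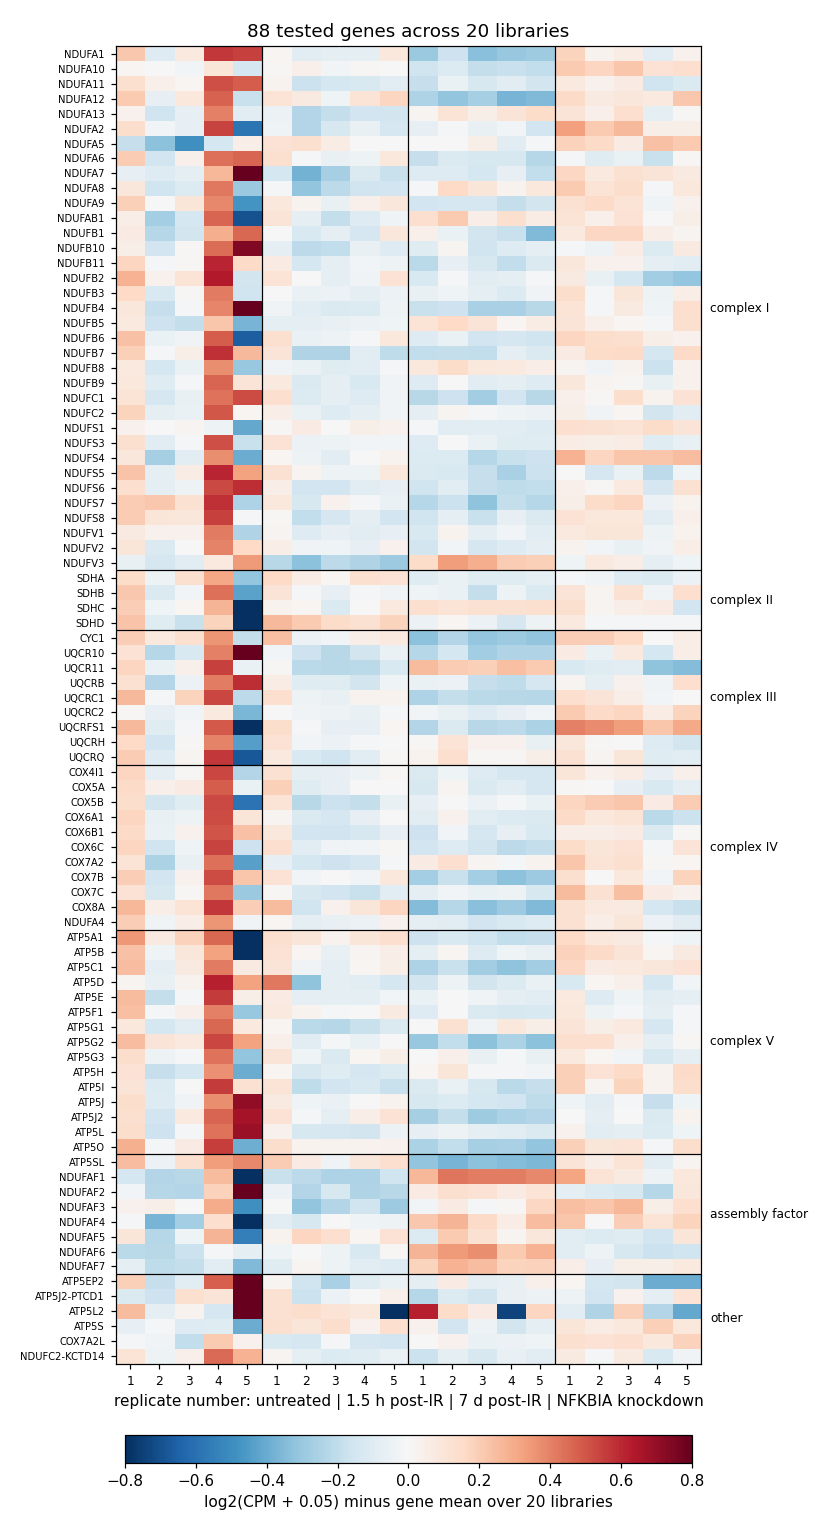
Level of each of 88 tested members in each of the 20 libraries, as log2(CPM + 0.05) minus the gene's mean over all libraries, with rows by complex or class and columns by group and replicate. Colours reach their limit at 0.8 in either direction. Untreated replicate 4 is raised in most rows and untreated replicate 5 varies from row to row, while the 5 libraries at 7 days are alike, below the mean for many subunits and above it for NDUFAF1, NDUFAF4, NDUFAF6 and NDUFAF7.

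Lanes were confounded with groups. No lane held untreated libraries together with those at 7 days or with the knockdown, so lane and group cannot be told apart in these comparisons. A fit with the lane as a factor ties them through untreated replicate 5 alone. There the median of the members turned to 0.043 at 7 days, to 0.068 at 1.5 h and to 0.23 in the knockdown. The medians of all genes were 0.069, 0.035 and 0.025 in the same order. At 7 days 20 members passed lower and 22 higher, counts for which the share of all genes is not given.

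ATP5G1 and ATP5G3 encode the same mature c subunit as ATP5G2, and their balance was compared as a ratio. The log2 ratio of ATP5G1 to ATP5G3 CPM was -1.29 ± 0.20 (SD, n = 5) in untreated cells, -1.47 ± 0.044 at 1.5 h, -1.26 ± 0.046 at 7 days and -1.29 ± 0.040 in the knockdown. In the 5 untreated libraries it was -1.39, -1.42, -1.41, -1.30 and -0.94, with replicate 5 above every other library. Ratios lay between -1.52 and -1.42 at 1.5 h, between -1.32 and -1.22 at 7 days and between -1.34 and -1.23 in the knockdown. What passed depended on the untreated libraries. With all of them an exact two-sided permutation test gave p = 0.0159 at 1.5 h (adjusted over 3 comparisons p = 0.0476, the smallest possible p being 0.00794), p = 0.849 at 7 days and p = 0.992 in the knockdown. With replicates 4 and 5 left out, the difference at 1.5 h was -0.068 (exact permutation p = 0.0536, adjusted p = 0.0536) and did not pass. All 5 libraries at 7 days and all 5 of the knockdown then lay above the 3 untreated ones, with mean differences of 0.14 and 0.12 (each exact permutation p = 0.0179, the smallest that 5 against 3 allow, adjusted p = 0.0268). Of the 3 genes, ATP5G2 alone passed the test at 7 days against untreated cells, with ATP5G1 at -0.047 (adjusted p = 0.646) and ATP5G3 at -0.082 (adjusted p = 0.437). Without replicates 4 and 5 the sign of ATP5G1 turned (0.075 ± 0.060 (SE), adjusted p = 0.269).

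Other genes of the pathway, from lists of mitochondrial function, moved at 7 days in both directions, where 32.9% of all genes were higher and 31.2% lower. Of 43 assembly factors outside the rule, 14 were higher and 12 lower (median -0.029). Without untreated replicates 4 and 5 there were 18 and 14 (median 0.052), and both pairs of counts are close to the shares of all genes. LYRM7, which chaperones UQCRFS1, changed by 0.73 ± 0.058 (SE), adjusted p = 5.24e-10, and UQCC1, an assembly factor of complex III, by 0.72 ± 0.070 (SE), adjusted p = 1.37e-08. TIMMDC1, an assembly factor of complex I, was at 0.62 ± 0.10 (SE), adjusted p = 1.29e-05, and COX17, the copper chaperone of complex IV, was lower at -0.64 ± 0.091 (SE), adjusted p = 3.23e-06. Of 14 genes of ubiquinone and cytochrome c, 4 were higher and 3 lower, among the latter COQ2 at -0.69 ± 0.093 (SE), adjusted p = 1.52e-06. These counts became 4 and 4 without replicates 4 and 5, where ADCK3 had the largest rise of the list (0.77 ± 0.070 (SE), adjusted p = 1.21e-09).
Of 24 factors of mitochondrial gene expression and biogenesis, 10 were higher and 5 lower, or 10 and 7 without those replicates. NRF1, the transcription factor whose motif was searched above, fell from 23.6 ± 1.74 CPM to 12.5 ± 1.19 CPM (SD, n = 5), a log2 fold change of -0.92 ± 0.064 (SE), adjusted p = 8.64e-11. Against 1.5 h it was at -0.78 ± 0.064 (SE), adjusted p = 1.14e-09 and against the knockdown at -0.80 ± 0.065 (SE), adjusted p = 1.06e-09. LRPPRC, which stabilizes mitochondrial mRNA, was higher at 0.48 ± 0.088 (SE), adjusted p = 6.93e-05. Of 19 citric acid cycle genes, 8 fell and 3 rose (median -0.083), with CS, citrate synthase, at -0.45 ± 0.057 (SE), adjusted p = 5.95e-07 and FH, fumarase, at -0.63 ± 0.084 (SE), adjusted p = 1.36e-06. Of 20 glycolysis genes, 8 rose and 8 fell, with HK2, a hexokinase, at 1.67 ± 0.11 (SE), adjusted p = 3.33e-11 and LDHA, lactate dehydrogenase, at -0.47 ± 0.059 (SE), adjusted p = 5.51e-07. With replicates 4 and 5 left out, 10 citric acid cycle genes fell and 4 rose (median -0.15), and 8 glycolysis genes rose and 9 fell. The genes named here passed in the same direction in both fits.

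Ribosomal protein genes were counted beside the members. At 7 days 37 of 82 mitochondrial ribosomal genes fell and 12 rose (median -0.11), and of 81 cytosolic ones 28 fell and 4 rose (median -0.12), against 31.2% lower and 32.9% higher of all genes. Without untreated replicates 4 and 5, 34 mitochondrial ribosomal genes fell and 21 rose (median -0.066), and 20 cytosolic ones fell and 7 rose (median -0.055). Against the knockdown, 30 and 21 were lower at 7 days and 7 and 2 higher, against 27.7% and 29.7% of all genes. Against 1.5 h, 16 mitochondrial ribosomal genes were lower and 14 higher (median -0.016), and 3 cytosolic ones were lower and 6 higher (median 0.033), against 28.9% lower and 32.0% higher of all genes. The subunits of the respiratory chain had a median of -0.083 there. Gene models of members were shorter (median 2434 bases against 4694 for all genes tested). Of 9 hypoxia reference genes, 4 were higher at 7 days and 0 lower, or 4 and 1 without those replicates. What the members share with these lists was not tested.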

How the data were processed

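Stranded mRNA libraries were read from one end on an Illumina sequencer. The submitters' processing notes name bcl2fastq, Trimmomatic, STAR 2.4.2a and the build hg19. The counting tool, annotation and strand setting were not given in the sources used here, so reads of overlapping genes may be shared. The authors deposited raw counts per gene, not normalized, for 20314 genes, of which 1679 have no symbol.

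Genes were filtered with filterByExpr (minimum count 10) of edgeR 4.0.16 (R 4.3.3) and scaled by TMM, and 1 quasi-likelihood model with a term per group was fitted to all 20 libraries. The 5 comparisons were tested over 14992 genes with Benjamini-Hochberg adjustment. A member passed at an adjusted p under 0.05, and a second count required a log2 fold change past 0.5 as well. Standard errors came from the F statistic, log2 CPM used a prior count of 2, and single members were compared by exact permutation tests. Named members were core subunits, paralog pairs, NDUFAF assembly factors, every member past 0.5 and up to 5 passing members with the largest change in each direction against untreated cells. Others, such as NDUFA10, NDUFA12, COX7B and ATP5O, and the genes of other lists were named after their values were seen. The members, lists and tests were chosen with earlier results of these data known. Alternatives were other normalizations and filters, DESeq2 1.42.0, GC (from GENCODE transcripts) and length trends, lane, replicate numbers, 2-group fits and leaving out libraries. The model was tested on simulated data. A result for 1 member is counted but not reported here. Depth of 22535659 to 40390961 counts limits precision by counting error only for genes of few counts.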

Additional observations from a re-analysis of the deposited data

Results flagged for a closer look

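Across the 51 named members and 4 groups, 14 of 204 sets of 5 libraries held a library far from the other 4 (a gap of more than 0.71 of the whole range). Chance flags about 1 in 20 of sets that were not chosen by their values. Some of these members were named for large changes against untreated cells, which an extreme untreated library can produce. The count therefore cannot be compared with that rate. Of these 14, 5 were in untreated replicate 5, which stood at 335 CPM for UQCR10 (others 96.4 to 149), 60.1 CPM for NDUFAF2 (23.2 to 31.0), 37.4 CPM for NDUFA7 (15.9 to 20.5), 14.6 CPM for ATP5S (17.9 to 19.1) and 112 CPM for NDUFS1 (144 to 152). The same library therefore stood high for 3 members and low for 2. The cause was not tested.

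At 7 days, replicate 1 stood low for NDUFAF1 at 12.9 CPM (others 14.0 to 14.5) and high for NDUFS1 at 147 CPM (138 to 140.0), and replicate 2 stood high for COX6A1 at 91.7 CPM (82.6 to 84.5) and for NDUFA1 at 34.5 CPM (30.6 to 31.7). In the knockdown, ATP5S in replicate 4 was high at 22.0 CPM (20.0 to 20.6), NDUFAF5 in replicate 5 high at 8.93 CPM (7.51 to 7.83), SDHD in replicate 1 high at 84.1 CPM (79.0 to 79.1) and NDUFAF7 in replicate 2 low at 39.8 CPM (43.0 to 44.0). At 1.5 h, NDUFS3 in replicate 1 was high at 117 CPM (105 to 107).

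A pair of members differed between groups other than untreated cells by more than 0.5 on the log2 scale in the test of that difference. NDUFAF1 was higher at 7 days than at 1.5 h by 0.59 in edgeR's quasi-likelihood test (adjusted p = 0.000505), and UQCRFS1 was at -0.53 at 7 days against the knockdown (adjusted p = 0.0141). In both cases all 5 libraries of one group lay on the same side of all 5 of the other.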

How the results depend on the processing

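Of 681 recomputed values of the 31 changes named for their size, all of which had passed, 571 kept their direction and side of the threshold, 108 kept only the direction and 2 reversed, both with lane as a factor (NDUFV3 at 7 days against untreated cells, -0.091, and NDUFB2 in the knockdown, 0.18). That fit, which rests on untreated replicate 5, also gave 15 members higher and 17 lower past 0.5 with a median of 0.068 at 1.5 h, 16 and 20 with a median of 0.043 at 7 days, and 24 and 9 with a median of 0.23 in the knockdown. Of all 14992 genes, 1781 were higher and 2039 lower past 0.5 at 1.5 h in the lane fit. The counts of all genes were 3268 and 2920 at 7 days and 1994 and 2094 in the knockdown. For 7 days against 1.5 h the lane fit gave a median of -0.011 and 2 members higher. Against the knockdown it gave a median of -0.20 and 2 lower at 7 days. At 1.5 h the 3 lower members past 0.5 became 0 with library size alone, with a fit to the 2 groups, with a replicate block, with the GC and length trend removed and without untreated replicates 4 and 5, and 1 with scaling that left out the members. At 7 days against untreated cells the 7 lower became 0 without those replicates, and in the knockdown the 1 lower became 0 without them and in the fit to the 2 groups. Upper-quartile factors and library size alone gave 2 higher for 7 days against 1.5 h. Leaving out single libraries gave 0 to 4 lower at 1.5 h, 0 to 2 higher and 4 to 10 lower at 7 days, 0 to 2 lower in the knockdown, 1 to 2 higher for 7 days against 1.5 h, and a median of -0.16 to -0.12 for 7 days against the knockdown. Members passing lower then ranged from 6 to 35 at 1.5 h (without replicate 2 at 1.5 h and without untreated replicate 2) from 37 to 58 at 7 days and from 7 to 26 in the knockdown, and members passing higher from 4 to 12 at 7 days and from 7 to 20 in the knockdown. Fits to the 2 groups alone passed 41 lower and 18 higher for 7 days against 1.5 h, and 4 higher and 2 lower in the knockdown. Shares of all genes passing in these alternative fits are not given. Replicate numbers did not pair the libraries (30 correlations of deviations from -0.25 to 0.12, with 8 of 60 best with their own number), and the replicate block passed 40 lower and 6 higher at 7 days and 13 lower and 2 higher at 1.5 h. Library size alone moved the share of higher genes among all called in the knockdown from 40.8% to 51.2%. The filter on low counts left 7 members untested. The cause of these shifts was not tested.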

Other observations

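NDUFA3 of complex I (ENSG00000170906), which the table lists without a symbol, stood at 27.3 ± 10.7 CPM in untreated cells (SD, n = 5), 18.6 ± 1.14 CPM at 1.5 h, 20.2 ± 1.02 CPM at 7 days and 23.5 ± 1.28 CPM in the knockdown. In edgeR's quasi-likelihood test its log2 fold change was -0.54 at 1.5 h (adjusted p = 0.0169), -0.42 at 7 days (adjusted p = 0.0231) and -0.21 in the knockdown (adjusted p = 0.303). Untreated replicates 4 and 5 stood at 30.1 and 44.9 CPM, above the other 3 at 20.0 to 21.5 CPM. Without them the values were -0.15 at 1.5 h (adjusted p = 0.0534), -0.040 at 7 days (adjusted p = 0.546) and 0.18 in the knockdown (adjusted p = 0.0141), so that the calls at 1.5 h and 7 days were lost and the knockdown passed as higher.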
